A study of Mus musculus with 8 samples.

Results

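The mouse zinc finger genes with symbols from Zfp700 to Zfp999 were described in mouse embryonic stem cells (mESCs). They were chosen by symbol alone, with suffix letters allowed, and 104 of the 24062 gene rows had such a symbol. The series measured poly(A) RNA in 4 conditions with 2 biological replicates each. All 8 libraries came from line #33-6, a single mESC line with conditional Setdb1 alleles, in which 4-hydroxytamoxifen (4-OHT) induces the deletion. WT mESCs carried the conditional alleles without treatment. UNC0642-treated mESCs received 2 µM of the G9a/GLP inhibitor for 3 days, per the labels. Setdb1 KO mESCs received 800 nM 4-OHT for 5 days. UNC0642-treated Setdb1 KO mESCs received, per the labels, 800 nM 4-OHT for 2 days and then 2 µM UNC0642 for 3 days. The comparisons ask how the RNA of these genes changed when the enzymes for H3K9 methylation were lost or inhibited, alone or together.

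C2H2 zinc finger genes form one of the largest gene families of mammals. Many of their proteins join an array of DNA-binding fingers to a KRAB domain, which binds the corepressor TRIM28 (KAP1). TRIM28 in turn recruits SETDB1, which deposits H3K9me3, and many KRAB zinc finger proteins direct this machinery to endogenous retroviruses in mESCs. The genes themselves lie in clusters that carry H3K9me3 in many cell types. G9a (Ehmt2) and GLP (Ehmt1) deposit H3K9me2 and are the targets of UNC0642.

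All 104 genes had a position in the GENCODE M21 annotation of GRCm38, on 16 chromosomes, and 102 had a coding sequence. Zfp783 and Zfp939 are annotated as pseudogenes. In the translated coding sequences, 95 of 102 genes had at least 1 match to the C2H2 finger pattern, with a median of 10 and a highest number of 23 fingers. A KRAB pattern was found in 77 of them. By these patterns the label of largely KRAB zinc finger genes held for most members but not for all of them. Clusters were defined as runs of at least 4 members with gaps of at most 500 kb, and 45 members fell into 7 such clusters. The largest held 10 members on chr17:21567008-22867134. A second cluster on this chromosome held 8 members at chr17:32765496-33307241. The chromosome 13 cluster held 8 members at chr13:67038596-67687071, the chromosome 8 cluster 6 members at chr8:69209038-69791178 and the chromosome 6 cluster 5 members at chr6:47819266-48086593. Chromosome 7 had a pair of clusters with 4 members each, at chr7:43114229-43618285 and chr7:127244274-127406822.

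Promoters of 5 members are shown because 3 of their genes passed the main test (Zfp951, Zfp709 and Zfp873), Zfp809 is the retrovirus repressor described below, and Zfp775 was lower in all 3 treated conditions without overlap. They are RefSeq sequences of GRCm38.p6 that run from 250 bases before to 50 bases after the first listed start. Capitals mark CpG dinucleotides, the sites of DNA methylation. They lie at chr5:104859978-104860277 on the minus strand for Zfp951, and on the plus strand at chr8:71881818-71882117 for Zfp709, chr10:82047873-82048172 for Zfp873, chr9:22225453-22225752 for Zfp809 and chr6:48601757-48602056 for Zfp775.
Zfp951: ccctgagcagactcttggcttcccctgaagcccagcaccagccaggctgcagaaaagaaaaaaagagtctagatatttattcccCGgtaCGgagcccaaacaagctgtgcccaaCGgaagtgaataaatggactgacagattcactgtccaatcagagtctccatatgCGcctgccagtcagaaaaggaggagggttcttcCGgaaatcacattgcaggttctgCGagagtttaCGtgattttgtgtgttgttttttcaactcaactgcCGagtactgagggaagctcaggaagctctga
Zfp709: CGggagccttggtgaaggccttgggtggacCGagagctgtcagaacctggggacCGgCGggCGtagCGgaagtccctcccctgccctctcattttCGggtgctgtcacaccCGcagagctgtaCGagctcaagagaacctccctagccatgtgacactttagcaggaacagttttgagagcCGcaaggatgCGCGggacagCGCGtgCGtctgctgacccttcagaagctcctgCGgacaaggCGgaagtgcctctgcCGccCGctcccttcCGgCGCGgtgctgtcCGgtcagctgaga
Zfp873: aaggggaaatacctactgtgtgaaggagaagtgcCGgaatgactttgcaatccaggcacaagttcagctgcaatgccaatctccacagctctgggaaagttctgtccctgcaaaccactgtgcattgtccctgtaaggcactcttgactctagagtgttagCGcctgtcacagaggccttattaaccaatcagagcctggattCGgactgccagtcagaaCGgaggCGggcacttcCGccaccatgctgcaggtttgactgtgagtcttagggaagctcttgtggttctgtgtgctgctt
Zfp809: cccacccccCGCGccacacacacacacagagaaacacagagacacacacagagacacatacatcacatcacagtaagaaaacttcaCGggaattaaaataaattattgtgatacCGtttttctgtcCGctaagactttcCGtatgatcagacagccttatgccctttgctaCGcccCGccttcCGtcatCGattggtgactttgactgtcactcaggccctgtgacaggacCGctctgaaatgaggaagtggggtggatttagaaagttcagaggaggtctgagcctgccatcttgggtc
Zfp775: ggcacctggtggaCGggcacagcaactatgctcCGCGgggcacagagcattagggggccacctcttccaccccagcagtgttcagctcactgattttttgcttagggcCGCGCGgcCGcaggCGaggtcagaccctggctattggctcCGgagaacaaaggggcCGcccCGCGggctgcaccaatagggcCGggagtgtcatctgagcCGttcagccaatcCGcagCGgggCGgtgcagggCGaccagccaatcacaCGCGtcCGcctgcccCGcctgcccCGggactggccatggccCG

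These promoters held 8 CpG in Zfp951, 23 in Zfp709, 6 in Zfp873, 11 in Zfp809 and 24 in Zfp775. Over the 92 members with a promoter in the table the median was 10.5, against 16 in the promoters of Zfp1 to Zfp699 and 7 over 27025 genes. The 72 promoters of members with the KRAB pattern had a median of 10 CpG, and the 18 of members without it a median of 24. A few short words were searched on both strands. CCGGAA, which holds the core of ETS sites, stood in the promoters of 28 of 92 members (30.4%), in 36.9% of those of Zfp1 to Zfp699 and in 15.2% of all promoters, and was present in those of Zfp951, Zfp709 and Zfp873. CACGTG, an E-box, stood in 14 of 92 members (15.2%), in 4.67% of Zfp1 to Zfp699 and in 7.24% of all promoters. TATAAA stood in 3 of 92 members (3.26%), in 7.48% of Zfp1 to Zfp699 and in 14.2% of all promoters. These counts describe letters in a window and not binding.

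Libraries held from 11702590 to 26807807 counts, lowest in replicate 1 of WT and next lowest in replicate 1 of the UNC0642-treated Setdb1 KO, and 3 counts corresponded to between 0.108 and 0.311 CPM, that is counts scaled to a common library size. The row of Setdb1, the targeted gene, was at 169 and 127 CPM in WT and at 130 and 86.4 CPM in UNC0642-treated mESCs. It was at 47.3 and 51.0 CPM after 4-OHT and at 61.1 and 34.1 CPM after 4-OHT with UNC0642, so both KO conditions lay below WT. The difference missed the main test (log2 fold change -1.59 and -1.64, adjusted p = 0.181 and 0.0746) and passed with the replicate number as a block (adjusted p = 0.0164 and 0.00593). The summed level of 10 mESC markers was between 4266 and 6677 CPM in the 8 libraries, and the labelled cell type was thus present throughout. The sum of 9 genes of the 2-cell-like state was between 8.80 and 29.7 CPM in WT, 290 and 882 CPM in UNC0642-treated, 147 and 408 CPM in the KO and 728 and 1578 CPM in the UNC0642-treated KO. The sum of 7 germ line genes was between 63.0 and 122 CPM without and between 430 and 550 CPM with 4-OHT. Markers of trophectoderm (27.4 to 134 CPM), primitive endoderm (11.9 to 70.4 CPM) and fibroblasts (4.14 to 20.5 CPM) stayed low in sum. No marker in these lists was at 0 in every library. The part of the 2-cell-like and germ line markers in the results below was not tested, and fewer cells of a type and less RNA per cell cannot be told apart in these bulk libraries.

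The genes Zfp700 to Zfp999 took up more of the gene counts in all 6 treated libraries than in WT. Their share was 0.248% and 0.219% in WT, 0.331% and 0.316% in UNC0642-treated, 0.446% and 0.318% in the KO and 0.416% and 0.390% in the UNC0642-treated KO. The groups did not overlap with WT. In the heat map of all tested members most rows turned to higher values in the treated libraries, and replicate 1 of the Setdb1 KO was higher than replicate 2 for many of them.

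**Figure D1:**
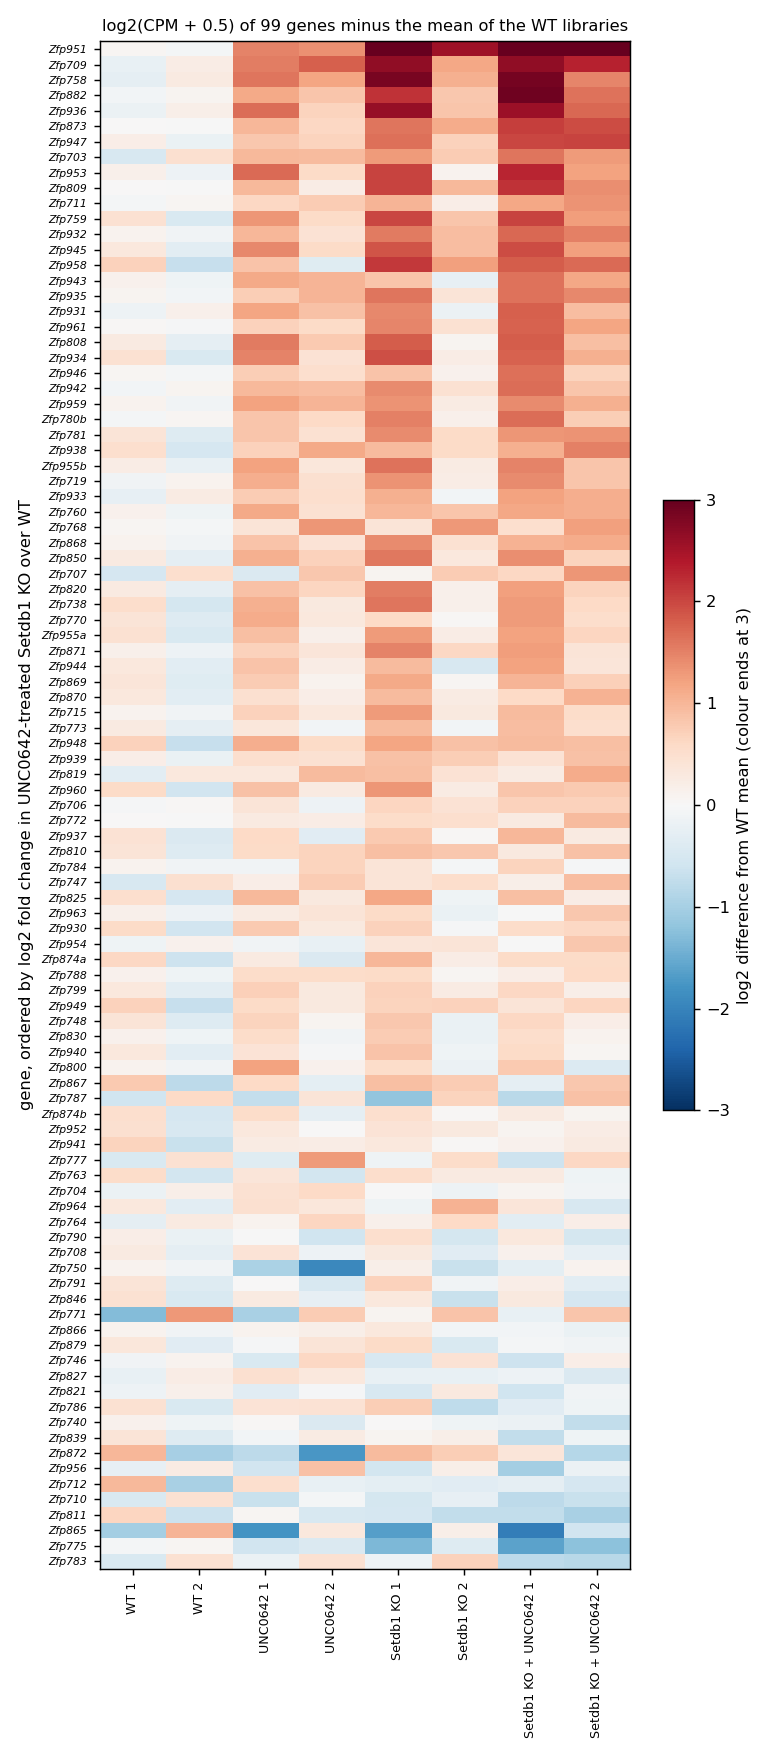
Heat map of the 99 tested genes, with 1 row per gene and 1 column per library, coloured by log2(CPM + 0.5) minus the mean of the WT libraries. Rows are ordered by the log2 fold change of the UNC0642-treated Setdb1 KO over WT, from Zfp951 (3.42) to Zfp783 (-1.73), and 73 of the 99 genes were higher in that comparison.

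The low-expression filter kept 99 of the 104 members. The other 5 were at or near 0. Zfp735 had 3 counts in 1 library, Zfp804a 3 counts in 1 library, Zfp804b 1 count in 1 library and Zfp957 counts of 3 and 4 in 2 libraries, while Zfp831 reached 9 counts in 1 library. The 5 members with the highest mean level over the 8 libraries were Zfp740, Zfp706, Zfp961, Zfp936 and Zfp808. Zfp740 was at 265 and 223 CPM in WT and at 215 and 147 CPM in the UNC0642-treated Setdb1 KO, which lay below WT without overlap, and its log2 fold change was -0.43 ± 0.41 (SE; adjusted p = 0.664). Zfp706, which in mESCs is known for a part in the exit from self-renewal, was at 156 and 162 CPM in WT and at 257 and 255 CPM in the UNC0642-treated Setdb1 KO (log2 fold change 0.69 ± 0.39, adjusted p = 0.405). Per kilobase of exon, which allows genes to be compared, the order of the mean level was Zfp869 (60.4 CPM per kb), Zfp936 (43.1), Zfp740 (43.0), Zfp958 (41.8) and Zfp706 (41.3).

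UNC0642 alone was associated with higher values of most members. Of 99 tested genes, 82 had a positive log2 fold change over WT, and the median was 0.52, that is 1.43-fold. The same median was 0.14 for 243 tested genes from Zfp1 to Zfp699 and -0.04 for the 15313 genes tested. Over 2-fold higher values were seen in 15 members (15.2%, against 8.15% of all genes), and over 2-fold lower values in 2 members (2.02%, against 4.28%). Both UNC0642-treated libraries lay above both WT libraries in 45 of 99 members, against 13.1% of all genes, and below them in 2 members, against 11.3% of all genes. Of Zfp1 to Zfp699, 7.82% were over 2-fold higher, and 56 of 243 lay above WT and 12 below it without overlap. The median within replicate 1 was 0.39 and that within replicate 2 was 0.54.

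No member passed the test in UNC0642-treated over WT mESCs by edgeR, where 0% of all genes were called higher. At an unadjusted p under 0.05 there were 2 higher members, against 2.99% of all genes, and 1 lower member, against 0.418%. With the replicate block 0 of 99 members and 0.176% of all genes were called higher, and DESeq2 called 0 members and 0.764% of all genes with an adjusted p higher. The 5 members with the smallest p are given as values. Zfp951 was at 10.5 and 9.53 CPM in WT and at 28.9 and 26.7 CPM with UNC0642 (log2 fold change 1.47 ± 0.44, adjusted p = 0.746). Zfp709 was at 3.92 and 5.59 CPM in WT and at 14.4 and 17.4 CPM with UNC0642 (1.74 ± 0.57, adjusted p = 0.921). Both genes lay above WT without overlap. Zfp758 (1.53 ± 0.74) and Zfp959 (1.18 ± 0.53) had the same order of groups, with 2.09 and 3.21 CPM in WT and 8.93 and 6.51 CPM with UNC0642 for Zfp758. Zfp750, known as a regulator of epidermal differentiation, was at 4.96 and 4.15 CPM in WT and at 2.12 and 0.827 CPM with UNC0642 (-1.63 ± 0.67), and was the lower member among the 5.

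Setdb1 KO was also associated with higher values of most members, and Zfp951 rose. Of 99 genes, 84 had a positive log2 fold change, with a median of 0.57 against 0.25 for Zfp1 to Zfp699 and -0.06 for all genes tested. A change of over 2-fold upward was seen in 28 members (28.3%) against 11.3% of all genes, and over 2-fold downward in 0 members against 6.82% of all genes. Both KO libraries lay above both WT libraries in 37 of 99 members, against 15.4% of all genes, and below them in 1 member, against 13.9% of all genes. Of Zfp1 to Zfp699, 14.8% were over 2-fold higher, and 76 of 243 lay above WT and 20 below it without overlap. The medians within replicates 1 and 2 were 0.59 and 0.39. Without replicate 1 of the Setdb1 KO the median was 0.23, and without replicate 2 it was 0.83.

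Zfp951, a KRAB zinc finger gene with 10 fingers at chr5:104813169-104860070, was the only member called in Setdb1 KO over WT mESCs by the main test (1 of 99, against 0.882% of all genes called higher, a share near the background). Its counts were 121 and 264 in WT and 3095 and 1096 in Setdb1 KO, which is 10.5 and 9.53 CPM against 131 and 60.3 CPM. The groups were far apart, with a log2 fold change of 3.25 ± 0.47 (9.54-fold, adjusted p = 0.0153). It was between 2.59 and 3.68 when a library was left out. None of the exonic 100-base words of Zfp951 occurred in another gene. With the replicate block 7 of 99 members were called higher, against 13 of 243 genes from Zfp1 to Zfp699 and 2.80% of all genes. The 7 members were Zfp951, Zfp759, Zfp809, Zfp873, Zfp932, Zfp945 and Zfp958. DESeq2 called 3 of 99 members higher, a share near the 2.75% of all genes with an adjusted p. No member was called lower by any of these fits. Of all genes, 1 of 15313 was called lower by the main test, 80 of 15313 with the block and 28 of 15053 by DESeq2. The 0 is thus near the background and says nothing particular of the members. At an unadjusted p under 0.05 without the block 17 members were higher, against 5.85% of all genes, and 0 lower, against 1.73%.

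Zfp809 is known for binding the primer binding site of retroviruses that use proline tRNA, and thereby starts their silencing. It was at 26.2 and 25.7 CPM in WT, 51.2 and 30.4 CPM with UNC0642, 108 and 51.0 CPM in the KO and 118 and 69.2 CPM in the UNC0642-treated KO. All 6 treated libraries lay above WT. The log2 fold change of the KO over WT was 1.61 ± 0.50 (adjusted p = 0.257, and 0.0249 with the replicate block), and that of the UNC0642-treated KO was 1.85 ± 0.51 (adjusted p = 0.0806, and 0.00598 with the block).

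Zfp932 is known for repressing endogenous retroviruses together with its relative Gm15446. It was at 35.5 and 30.9 CPM in WT, 66.6 and 44.6 CPM with UNC0642, 98.3 and 63.8 CPM in the KO and 110 and 96.0 CPM in the UNC0642-treated KO. All treated libraries again lay above WT. The log2 fold changes over WT were 1.29 ± 0.41 in the KO (adjusted p = 0.264, and 0.0217 with the block) and 1.64 ± 0.41 in the UNC0642-treated KO (adjusted p = 0.0613, and 0.00344 with the block). Of its exonic 100-base words 22.1% occurred in other genes, mostly in Gm15446, so the level is uncertain to the extent that reads were split between the genes.

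**Figure D2:**
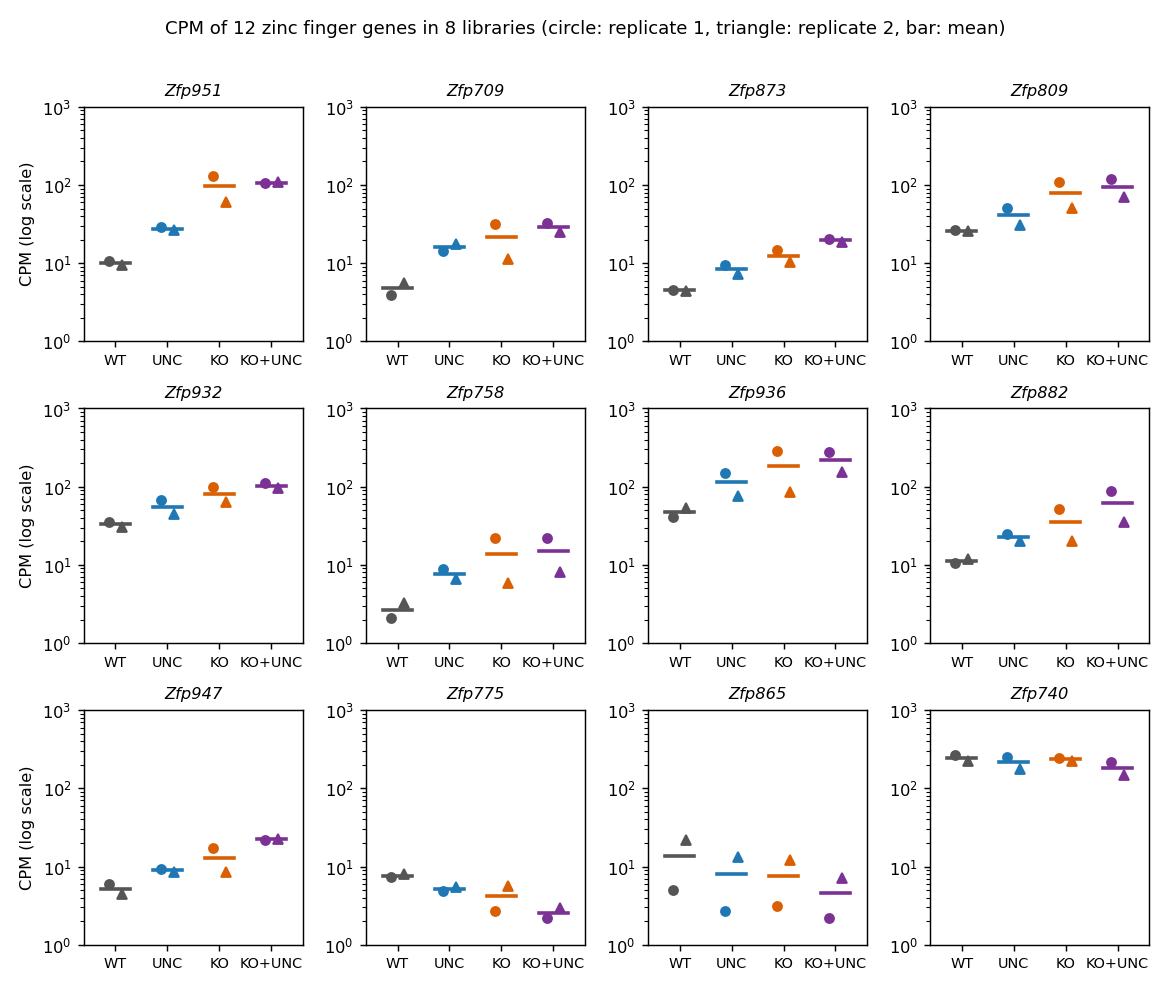
CPM on a log scale of 12 members in the 4 conditions, with a circle for replicate 1, a triangle for replicate 2 and a bar for the mean of both. Zfp951 runs from about 10 CPM in WT to 106 and 109 CPM in the UNC0642-treated Setdb1 KO, and Zfp775 falls from 7.31 and 7.94 CPM to 2.18 and 2.98 CPM.

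Most members also had higher values in the UNC0642-treated Setdb1 KO, and Zfp951, Zfp873 and Zfp709 rose. Of 99 genes, 73 had a positive log2 fold change and 26 a negative one. The median was 0.69 against 0.23 for Zfp1 to Zfp699 and -0.06 for all genes tested. Over 2-fold higher values were seen in 34 members (34.3%, against 14.5% of all genes), and over 2-fold lower values in 4 members (4.04%, against 16.3%). Both libraries lay above both WT libraries in 51 of 99 members, against 19.8% of all genes, and below them in 5 members, against 22.2% of all genes. Of Zfp1 to Zfp699, 20.6% were over 2-fold higher, and 87 of 243 lay above WT and 36 below it without overlap. The medians within replicates 1 and 2 were 0.54 and 0.76. Without replicate 1 of WT, the smallest library, the median was 1.08. The order of this median and that of the Setdb1 KO depended on the setting. It was 0.48 against 0.50 in the KO with a correction for GC content, and 0.68 against 0.83 without replicate 2 of the KO.

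The main test called 3 of 99 members higher, against 3.08% of all genes, a share near the background, and 0 lower, against 0.535%. At an unadjusted p under 0.05 there were 28 higher members, against 9.37% of all genes, and 1 lower member, against 7.54%. With the replicate block 29 of 99 members were called higher, against 8.09% of all genes, and 2 lower, against 7.63% of all genes. The same fit called 37 of 243 genes from Zfp1 to Zfp699 higher and 12 lower. DESeq2 called 10 of 99 members higher, against 5.29% of all genes with an adjusted p. A correction for GC content together with the block, added after the data were seen, gave 13 higher members, against 8.16% of all genes, and the median was then 0.48.

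Zfp951 was at 106 and 109 CPM in the UNC0642-treated Setdb1 KO, from 1019 and 2971 counts (log2 fold change over WT 3.42 ± 0.47, 10.7-fold, adjusted p = 0.0070). Zfp873, a KRAB gene with 16 fingers at chr10:82048123-82064745, was at 4.53 and 4.47 CPM in WT, 9.45 and 7.19 CPM with UNC0642, 14.7 and 10.2 CPM in the KO and 20.4 and 18.9 CPM in the UNC0642-treated KO (2.13 ± 0.48, 4.37-fold, adjusted p = 0.0434). Its 4 conditions did not overlap with each other. Zfp709, a KRAB gene with 18 fingers at chr8:71882019-71895727, was at 32.1 and 11.2 CPM in the KO and at 32.3 and 25.04 CPM in the UNC0642-treated KO, against 3.92 and 5.59 CPM in WT (2.58 ± 0.59, 5.99-fold, adjusted p = 0.0435). When a library was left out, the log2 fold changes were 3.36 to 3.49 for Zfp951, 2.07 to 2.18 for Zfp873 and 2.34 to 2.88 for Zfp709.

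The next members by p had adjusted p-values between 0.0565 and 0.0613. Zfp882 was at 10.4 and 11.9 CPM in WT and at 86.9 and 35.5 CPM in the UNC0642-treated KO (2.45 ± 0.60, adjusted p = 0.0565, and 0.00883 with the block). Zfp947 was at 6.01 and 4.40 CPM in WT and at 22.0 and 22.5 CPM in the UNC0642-treated KO (4.28-fold, adjusted p = 0.0595, and 0.00602 with the block). Both genes were higher than WT in both libraries. Zfp961, a KRAB zinc finger gene and the third most abundant member, was at 96.1 and 92.9 CPM in WT, 152 and 141 CPM with UNC0642, 261 and 129 CPM in the KO and 323 and 217 CPM in the UNC0642-treated KO (1.51 ± 0.46, adjusted p = 0.110, and 0.0118 with the block).

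The lower members were few. Zfp775, at 7.31 and 7.94 CPM in WT, was at 4.94 and 5.47 CPM with UNC0642, 2.67 and 5.72 CPM in the KO and 2.18 and 2.98 CPM in the UNC0642-treated KO, and was the only member below WT without overlap in all 3 comparisons. Its log2 fold change in the UNC0642-treated KO was -1.55 (adjusted p = 0.193, and 0.0331 with the block). Zfp865 was at 5.05 and 22.2 CPM in WT and at 2.18 and 7.06 CPM in the UNC0642-treated KO, so that the groups overlapped across replicates while each replicate was lower (-1.54, adjusted p = 0.50, and 0.0228 with the block). Neither gene has the KRAB pattern. The other members below WT without overlap in the UNC0642-treated KO were Zfp710, Zfp740, Zfp811 and the pseudogene Zfp783, and none of these passed either fit.

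**Figure D3:**
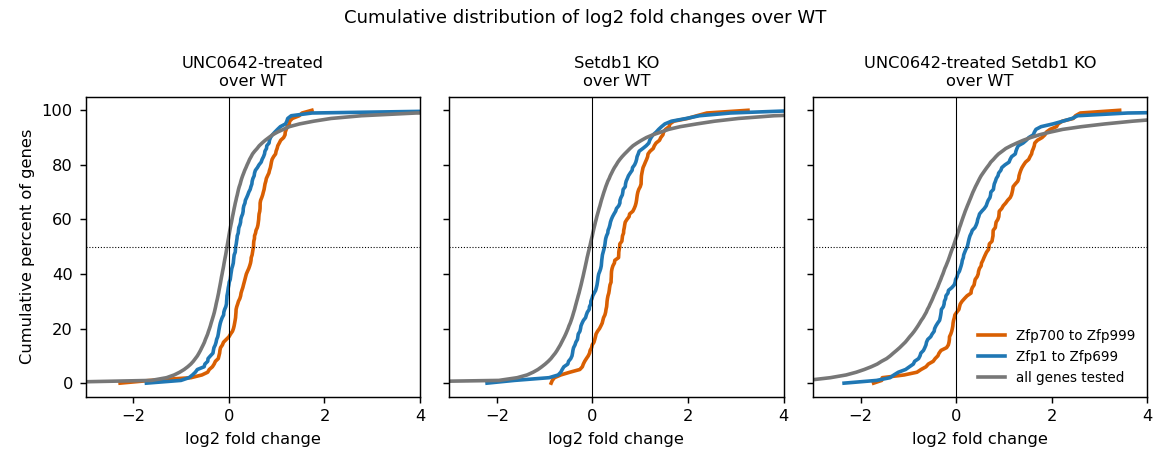
Cumulative percent of genes (y axis) against the log2 fold change over WT (x axis) in 3 comparisons, for Zfp700 to Zfp999 (99 genes), Zfp1 to Zfp699 (243 genes) and all 15313 genes tested. The curve of Zfp700 to Zfp999 crosses 50% at 0.52, 0.57 and 0.69, to the right of the other curves, while the curve of all genes reaches further at both ends.

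Of the 99 members, 70 (70.7%) had a positive log2 fold change in all 3 comparisons with WT and 10 a negative one in all 3. Over Zfp1 to Zfp699 the shares were 51.9% and 23.9%, and over all genes tested 29.7% and 37.6%. These comparisons share the WT libraries, so their directions are not independent.

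Between UNC0642-treated Setdb1 KO and Setdb1 KO mESCs the median of the members stayed close to that of all genes. By the labels these conditions differ in the days of 4-OHT (2 against 5) as well as in UNC0642, and these cannot be told apart. The median log2 fold change of the UNC0642-treated KO over the KO was 0.06, against -0.02 for all genes, and its sign was not stable: the medians within replicates 1 and 2 were -0.16 and 0.37, and the median without replicate 1 of the KO was 0.55 while that without replicate 2 was -0.18. No member was called by edgeR, where 0% of all genes were called higher, nor with the block, against 0.118% of all genes, nor by DESeq2, against 0.595% of all genes with an adjusted p. At an unadjusted p under 0.05 there were 0 higher members, against 2.81% of all genes, and 1 lower member, against 1.89%. This was the pseudogene Zfp783, at 0.762 and 1.76 CPM in the KO and at 0.311 and 0.294 CPM in the UNC0642-treated KO, from 3 and 8 counts. The next members by p, with 4.83 and 2.04 against 8.82 and 6.25 CPM for Zfp943, were all higher (log2 fold change 1.13 ± 0.59 for Zfp943, 0.79 ± 0.50 for Zfp947 and 0.66 ± 0.46 for Zfp873).

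Loss of Setdb1 in UNC0642-treated mESCs was compared likewise. The median of the UNC0642-treated KO over UNC0642-treated mESCs was 0.22, against 0.03 for Zfp1 to Zfp699 and -0.05 for all genes. It was 0.039 without replicate 1 of the UNC0642-treated KO, 0.098 without replicate 2 of UNC0642-treated mESCs, 0.43 without replicate 1 of the latter, and 0.046 with total counts in place of TMM, where the median of all genes was -0.26. No member was called by edgeR, against 0.869% of all genes called higher, with 7 higher members at an unadjusted p under 0.05, against 5.37% of all genes, and 0 lower ones, against 2.86%. With the block 2 members were called higher, Zfp951 and Zfp958, against 2.91% of all genes, and DESeq2 called 1, against 2.36% of all genes with an adjusted p. Zfp951 was at 28.9 and 26.7 CPM with UNC0642 and at 106 and 109 CPM with both (1.95 ± 0.45, adjusted p = 0.0904, and 0.0105 with the block). Zfp958 was at 78.3 and 33.2 CPM with UNC0642 and at 152 and 140 CPM with both, while in WT it was at 69.3 and 26.6 CPM. Its UNC0642-treated libraries thus overlapped with WT and its KO libraries, at 189 and 102 CPM, did not.

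The interaction term asks whether both treatments together differ from the sum of their separate log2 effects. The difference in days of 4-OHT between the KO conditions, by the labels, also enters this term and cannot be told apart from it. Its median over the members was -0.40, against -0.23 for Zfp1 to Zfp699 and -0.03 for all genes tested. The medians within replicates 1 and 2 were -0.52 and -0.16. No member was called by edgeR with or without the block, and 0 of all 15313 genes were. In the main fit 0 members had an unadjusted p under 0.05, against 28 higher and 91 lower of the 15313 genes. The 0 is thus near the background and says nothing particular of the members, and a departure from additivity was not shown for any single gene. For Zfp951 the term was -1.30 ± 0.61, and for Zfp709 it was -1.33 ± 0.79. It was 1.75 ± 0.92 for Zfp750, which was at 5.17 and 2.70 CPM in the KO and at 3.63 and 4.89 CPM with both treatments.

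The clusters differed in their medians. All 10 members of the larger chromosome 17 cluster were higher than WT in each of the 3 comparisons, with medians of 0.82 with UNC0642, 0.98 in the KO and 1.35 in the UNC0642-treated KO, where all 10 lay above WT without overlap, against 19.8% of all genes. Within it the UNC0642-treated KO values ran from 0.77 for Zfp948 to 2.50 for Zfp758, and 6 of 10 passed with the block, against 8.09% of all genes called higher. All 4 members of the chromosome 7 cluster that starts with Zfp936 were also higher in each comparison (medians 0.75, 0.90 and 0.98), from 0.75 for Zfp819 to 2.20 for Zfp936 in the UNC0642-treated KO, where 1 of 4 passed with the block. Zfp936 was at 41.5 and 53.1 CPM in WT and at 280 and 155 CPM in the UNC0642-treated KO. Zfp819, known for a part in the control of retroelements in pluripotent cells, was at 4.53 and 7.29 CPM in WT and at 6.95 and 13.0 CPM in the UNC0642-treated KO, with overlap.

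The remaining clusters were mixed in the UNC0642-treated KO. On chromosome 13 the UNC0642-treated KO values ran from -0.73 for Zfp712 to 1.88 for Zfp953 (median 0.42), and 3 of 8 passed with the block, against the same 8.09% of all genes. In the second chromosome 17 cluster they ran from -1.06 for Zfp811 to 1.20 for Zfp955b (median 0.61), and 2 of 8 passed with the block. On chromosome 8 all 6 members were higher than WT with UNC0642 (median 0.45) and in the KO (median 0.46). In the UNC0642-treated KO they ran from -0.14 for Zfp866 to 1.09 for Zfp868 (median 0.50), and 2 of 6 passed with the block. The chromosome 7 cluster around Zfp768 ran from -0.14 for Zfp771 to 1.16 for Zfp768 (median 0.25), and none of its 4 members passed. The chromosome 6 cluster stood on the other side, with 4 of 5 members lower than WT (median -0.37), from -1.73 for Zfp783 to 0.05 for Zfp777, although all 5 had been higher with UNC0642 alone (median 0.33). It holds Zfp746 (PARIS), known as a substrate of parkin and a repressor of PGC-1α, at 18.3 and 21.3 CPM in WT and at 12.7 and 22.6 CPM in the UNC0642-treated KO. The 54 tested members outside clusters had a median of 0.66 in the UNC0642-treated KO. They held the 3 genes called by the main test, against 3.08% of all genes called higher. With the block 15 of 54 passed as higher, against 8.09% of all genes. Neighbouring genes are not independent, and no test between clusters was made.

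**Figure D4:**
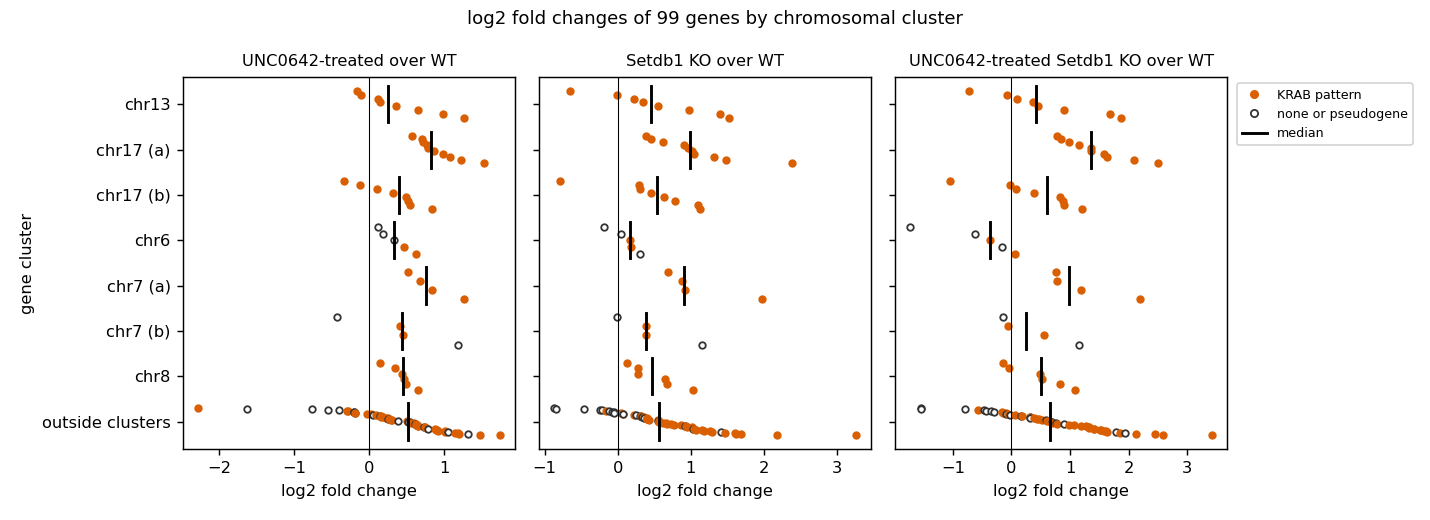
Log2 fold change over WT (x axis) of the 99 tested genes by chromosomal cluster (y axis) in 3 comparisons, with filled points for genes with the KRAB pattern, open points for genes without it and pseudogenes, and a line at the median. All 10 genes of the larger chromosome 17 cluster, marked (a), lie to the right of 0 in each comparison, and 4 of the 5 genes on chromosome 6 lie to the left of it in the UNC0642-treated Setdb1 KO.

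Members with and without the KRAB pattern differed in their medians. The groups were set by a search pattern, and how many KRAB domains it misses was not tested. Of 76 tested members with it, 67 were higher with UNC0642, 72 in the KO and 63 in the UNC0642-treated KO, with medians of 0.56, 0.67 and 0.83. Of 21 tested members without it, 13, 10 and 9 were higher, with medians of 0.19, -0.01 and -0.09. All 3 members called in the UNC0642-treated KO and 28 of the 29 called higher with the block had the pattern, as did 76 of all 99 tested members, and the remaining gene was Zfp770. This is 28 of 76 with it and 1 of 21 without it, against 8.09% of all genes. Both members called lower with the block lacked it. This is 2 of 21, against 7.63% of all genes, a share near the background. By finger number, the medians in the UNC0642-treated KO were 0.84 for 49 members with over 10 fingers, 0.58 for 37 with 6 to 10, -0.16 for 5 with 1 to 5 and 0.64 for 6 without a match.

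Reads shared between near-identical genes limit some of these values. The 35 tested members with at least 1% of their exonic 100-base words in another gene had a median of 0.84 in the UNC0642-treated KO, and the 64 with less had a median of 0.45. With the block 16 of the 35 and 13 of the 64 were called higher, against 8.09% of all genes. The part of shared reads in these values was not tested. The share was over 10% in 16 members. It was 100% for Zfp708 (with Gm28557), 99.3% for Zfp935, 92.4% for Zfp781 and 68.3% for Zfp960 (with Zfp97), and the values of these genes are uncertain. Zfp708, a KRAB zinc finger gene known to bind a retroelement class, was at 12.1 and 8.05 CPM in WT and at 10.9 and 8.27 CPM in the UNC0642-treated KO (-0.07 ± 0.52), with overlap in every comparison.

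Members with known roles outside KRAB repression are given as values, as none of them was called by the main test or with the block. Zfp703, a corepressor of the NET family, was at 0.174 and 0.830 CPM in WT and at 2.39 and 1.80 CPM in the UNC0642-treated KO, from 2 and 23 against 23 and 49 counts (1.95 ± 0.80, adjusted p = 0.241). Zfp711, an X-linked gene whose product works with the demethylase PHF8, was at 0.610 and 0.686 CPM in WT and at 2.08 and 2.43 CPM in the UNC0642-treated KO (1.79 ± 0.70, adjusted p = 0.214). Both were higher without overlap and neither passed either fit, while Zfp703 passed with the GC correction and the block (adjusted p = 0.0362). Zfp827, which recruits the NuRD complex to telomeres, was at 19.3 and 26.5 CPM in WT and at 20.4 and 16.7 CPM in the UNC0642-treated KO (-0.30 ± 0.41).

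Genes of the machinery that KRAB proteins use were read from a list of 30, of which 28 were rows and all 28 were tested. None passed the main test in any comparison. Trim28 was at 395 and 1301 CPM in WT and at 760 and 841 CPM in the UNC0642-treated KO (log2 fold change -0.08 ± 0.58). Its WT replicates lay far apart, so a stable level was not shown. With the block, Setdb1 was lower and Atf7ip, which stabilises the SETDB1 protein, was higher in the KO (98.3 against 276 CPM, log2 fold change 1.49, adjusted p = 0.326, and 0.0339 with the block). In the KO this is 1 of 28 higher, against 2.80% of all genes, and 1 of 28 lower, against 80 of 15313 genes. In the UNC0642-treated KO, Setdb1 and Ehmt2 were lower and Atf7ip and Atf7ip2 higher with the block. This is 2 of 28 higher, against 8.09% of all genes, and 2 of 28 lower, against 7.63%, shares near the background. Ehmt2, which encodes G9a, was at a mean of 150 CPM in WT and 61.1 CPM in the UNC0642-treated KO (-1.29, adjusted p = 0.185, and 0.0235 with the block).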

How the data were processed

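Poly(A) RNA from mESCs was sequenced in 4 conditions with 2 replicates each, grouped by the labels. The authors trimmed reads with Trim Galore 0.3.7, aligned them with TopHat2 to GRCm38 and counted them with TEtranscripts. Each deposited table held unnormalized counts for genes and repeat subfamilies. Labels and paper differ in the days of 4-OHT for the combined condition, and the conditions were kept as labelled. The members and gene lists were chosen with earlier results of these data known, and support nothing independently.

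A filter on low counts (filterByExpr, with a minimum count of 10 and a minimum total of 15) kept 15313 genes and 932 subfamilies. The quasi-likelihood test of edgeR 4.0.16 (R 4.3.3; TMM; 1 coefficient per condition; all 8 libraries) was used, and p-values were adjusted by Benjamini-Hochberg over genes and subfamilies in each comparison. Members were called at an adjusted p under 0.05 without a fold threshold, and fold changes used a prior count of 0.125. CPM were scaled by the TMM-normalized total, and differences per library used a pseudocount of 0.5 CPM. The precision at low counts is limited by depth, and 3 counts were taken as the floor. Alternatives were DESeq2 1.42.0, other normalizations and filters, a replicate block, each library left out and corrections for GC content and length in 20 bins, the last added after the data were seen. The fits were also run on simulated counts with a fixed spread for all genes and larger changes than most members had. That run therefore does not give their precision for the members.

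Same-numbered replicates share a number in the labels. Their deviations from the condition means correlated over 15313 genes in all 6 pairs of conditions (r between 0.351 and 0.706), so a fit blocked on this number stands beside each call that it changes. With 2 replicates, the deviations of replicate 1 and 2 mirror each other. The p-values rest on the spread between the 2 cultures within a condition, estimated jointly over the 4 conditions. Without the block this spread includes what same-numbered replicates share.

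Named members were those called, or the 5 with the smallest p where fewer than 5 were called, genes with known roles, the 5 with the highest mean CPM, and the highest and lowest of each cluster in the UNC0642-treated Setdb1 KO over WT. Members named outside this rule, such as Zfp775, Zfp865, Zfp958, Zfp770 and those with a large share of common words, were chosen after their values were seen. Positions and coding sequences were taken from GENCODE M21, fingers and KRAB boxes were counted by patterns in their translations with Biopython 1.88, and promoters are from RefSeq (GRCm38.p6).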

Additional observations from a re-analysis of the deposited data

How the results depend on the processing

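Direction over WT held for the median of the members under every setting run. In UNC0642-treated over WT mESCs the median was 0.52, with 0.37 to 0.78 when a library was left out, 0.40 with the GC correction and 0.39 with the GC correction and the replicate block. In the Setdb1 KO it was 0.57, with 0.23 to 0.89 when a library was left out. In the UNC0642-treated Setdb1 KO it was 0.69, with 0.54 to 1.08 when a library was left out, and 0.48 with the GC correction, with or without the block. The GC and length corrections were chosen after seeing the data. Total counts in place of TMM moved the median of all genes to -0.23 in this comparison, and the members then stood 0.78 above it, against 0.75. This distance was 0.47 with the GC correction, 0.48 without replicate 2 of WT and 1.13 without replicate 1 of WT. With UNC0642 alone it was 0.56, with 0.32 and 0.75 without replicates 2 and 1 of WT. In the KO it was 0.63, with 0.28 and 1.00 without replicates 1 and 2 of the KO.

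For the UNC0642-treated KO over the KO, the sign of the median (0.06) was not stable, with -0.18 to 0.55 when a library was left out and -0.0036 with the GC correction and the block. Over UNC0642-treated mESCs the median of 0.22 ranged from 0.039 to 0.43 when a library was left out. It was 0.27 with RLE normalization and with genes only, 0.26 with DESeq2 on all 8 libraries, 0.046 with total counts, 0.093 with the GC correction, 0.065 with the GC correction and the block, and 0.31 with the length correction.

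The counts of called members depended on the fit. In the Setdb1 KO there was 1 higher member, against 7 with the replicate block and 3 with DESeq2 on all 8 libraries (2.75% of all genes with an adjusted p) and on the 4 compared (2.28%). There were 4 with the GC correction and the block (2.72%) and 0 at a fold change above 10. In the UNC0642-treated Setdb1 KO there were 3, against 29 with the block, 10 with either DESeq2 fit (5.29% and 5.07% of all genes) and 13 with the GC correction and the block (8.16%). There was 1 with total counts (2.1%) and 1 at a fold change above 10, and 2 members were lower with the block. Calls with a library left out are not compared, because 1 library is then left in its condition. Over UNC0642-treated mESCs 2 were higher with the block, 2 with the GC correction and the block (2.93% of all genes) and 1 with either DESeq2 fit (2.36% and 2.60%). The block changed no other count of calls. The cause of these differences was not tested.

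Named genes that changed sign, in the UNC0642-treated Setdb1 KO over WT unless stated, had small log2 fold changes or replicates far apart, and none was called. Zfp708 (-0.07) was at 0.00225 with genes only and 0.030 with the length correction, and between -0.32 and 0.24 when a library was left out. Zfp750 (-0.09) was at 0.025 with the GC correction, 0.095 with the block added, and between -0.32 and 0.10. Zfp746 (-0.16) was at 0.13 with the GC correction, 0.15 with the block added, 0.058 with the length correction, and between -0.64 and 0.19. Zfp777 (0.05) was at -0.00072 with the block, -0.077 with total counts, and between -0.73 and 0.62. Zfp771 (-0.14) was at 0.19 with the block, 0.90 with the GC correction, 0.93 with both, and between -0.96 and 2.08. Zfp712 (-0.73) lay between -1.41 and 0.62, and Zfp882 over the KO (0.77) between -0.020 and 1.604 when a library was left out. Leaving out a library leaves 1 in its condition, whose spread is taken from the others.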
